A study of Mus musculus with 2 samples.

Results

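The Ly6g Mmp8 Ltf neutrophils were 320 of the 2668 CD45+ cells of the dorsal root ganglion (DRG, the cluster of sensory neuron cell bodies beside the spinal cord) in the deposited gene expression matrix. A cell was taken when S100a8 and S100a9 held at least 5% of its unique molecular identifiers (UMIs, one per captured mRNA molecule), when Fcnb, Elane, Prtn3, Ms4a3 and Cebpe together had fewer than 5 UMIs, and when its mean log1p of UMIs per 10000 was higher over Ly6g, Mmp8, Ltf and Camp than over Asprv1, Acod1, Stfa2l1 and Hcar2. The same rule with the higher score in the second set gave 116 late neutrophils. Fcnb, Elane, Prtn3, Ms4a3 and Cebpe are called the precursor genes below, and 114 cells with 5 or more of their UMIs were taken as precursors. A Cebpe UMI was found in 100% of these 114 cells, a Fcnb UMI in 75.4% and an Elane UMI in 15.8%. From the 560 cells over the S100 threshold 10 ties were left out. The 3 groups are ranges cut along measured values and not clusters. The cells came from naive, wild-type BALB/cAnNRj mice, described in the methods as at least 7 weeks old. On average 40 DRGs were pooled, the mice were perfused and the live CD45+ cells were sorted, hashed and run together in 1 lane of the 10x 3′ assay. The 2668 cells carried the hashtags of 3 male mice, and applying the same filters and hashtag calls to the larger deposited matrix gave 1073 cells of 3 female mice. All 2668 barcodes were in both matrices, and 0 of their entries differed. No treated group is compared here.

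Neutrophils are short-lived phagocytes that are made in bone marrow and fill their granules in waves. Primary (azurophil) granule proteins such as elastase are made first, specific granule proteins such as lactoferrin, lipocalin 2 and cathelicidin follow, gelatinase granules and secretory vesicles come last, and a released cell goes on to express receptors and cytokines. Ly6g encodes the surface protein used to recognise mouse neutrophils, Mmp8 neutrophil collagenase, Ltf lactoferrin and Camp cathelicidin. In this order the rule keeps cells that carry few transcripts of the precursor genes and hold more specific granule than late-stage transcripts.

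The upstream sequences of 4 specific granule genes are shown because these genes were high in the cells described below and low in late neutrophils. They are the 250 bases before the start site in RefSeq (GRCm38.p6), 5′ to 3′ on the strand of the gene, and capitals mark matches to TTGCNNAA or its reverse complement TTNNGCAA, letters of the kind bound by C/EBP factors. The stretches are chr9:110419558-110419807 for Ngp (plus strand), chr9:111019042-111019291 for Ltf (plus), chr2:32387740-32387989 for Lcn2 (minus) and chr9:109849457-109849706 for Camp (minus). In GENCODE (GRCm38) the genes span chr9:110419747-110423012 for Ngp, chr9:111019271-111042767 for Ltf, chr2:32384633-32388252 for Lcn2 and chr9:109847379-109849617 for Camp. GENCODE thus starts each of them farther upstream than RefSeq, and there the whole Lcn2 stretch lies inside the gene.
Ngp: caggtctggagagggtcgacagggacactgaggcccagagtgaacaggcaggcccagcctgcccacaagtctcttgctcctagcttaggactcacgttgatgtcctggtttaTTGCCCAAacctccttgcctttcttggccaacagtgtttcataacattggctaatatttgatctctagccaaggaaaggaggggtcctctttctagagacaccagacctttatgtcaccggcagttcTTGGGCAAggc
Ltf: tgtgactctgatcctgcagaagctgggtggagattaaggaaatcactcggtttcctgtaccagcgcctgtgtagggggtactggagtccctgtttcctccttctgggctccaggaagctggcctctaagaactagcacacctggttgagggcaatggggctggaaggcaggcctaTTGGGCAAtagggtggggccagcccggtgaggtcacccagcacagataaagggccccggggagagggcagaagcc
Lcn2: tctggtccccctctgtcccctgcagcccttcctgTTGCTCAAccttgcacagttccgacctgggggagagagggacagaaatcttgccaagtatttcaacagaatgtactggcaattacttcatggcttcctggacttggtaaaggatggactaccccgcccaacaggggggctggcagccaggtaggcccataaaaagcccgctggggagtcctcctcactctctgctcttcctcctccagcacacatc
Camp: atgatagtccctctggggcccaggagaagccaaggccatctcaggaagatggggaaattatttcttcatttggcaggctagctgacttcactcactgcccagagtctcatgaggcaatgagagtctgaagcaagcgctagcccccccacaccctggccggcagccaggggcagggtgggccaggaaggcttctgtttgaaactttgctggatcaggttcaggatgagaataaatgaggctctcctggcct
The Ngp sequence held 2 matches, starting 138 and 11 bases before the start site. The Ltf match started 75 and the Lcn2 match 216 bases before it, and these letters were not in the Camp window. In windows of 300 bases (250 before and 50 after the start) 10.8% of 32851 RefSeq promoters held the letters, and at least 1 promoter did for 12.2% of 27025 genes. They were found for 5 of the 13 specific granule genes with a RefSeq promoter (Ltf, Lcn2, Ngp, Mmp8 and Lyz1) and for 1 of 16 inflammatory mediator genes (Ptgs2). For GAGGAAG or its reverse complement CTTCCTC, letters of the kind bound by PU.1, the counts were 6 of 13 and 3 of 16 against 13.6% of all promoters and 15.4% of all genes. Both patterns were chosen from several after the levels and other matches had been seen, and a match is a description of letters and not a bound site.

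The 3 male mice gave 70, 53 and 197 of the Ly6g Mmp8 Ltf neutrophils, and the female mice gave 33, 24 and 28. They were 14.6%, 6.87% and 13.9% of all CD45+ cells in male 1, 2 and 3, a mean of 11.8% ± 4.27 (SD, n = 3), so the share in male 2 was below both others and outside their 95% Clopper-Pearson intervals (5.18% to 8.88% against 11.5% to 18% and 12.2% to 15.8%). The intervals cover counting error only. In the female mice the share was 8.64%, 7.67% and 7.41%, a mean of 7.90% ± 0.649. Female and male shares of all cells overlapped (2-sided exact permutation test, p = 0.4; 3 against 3 mice cannot give less than 0.1). Among neutrophils the share was 51.1%, 55.8% and 60.1% in the males (55.6% ± 4.48) and 66%, 54.5% and 75.7% in the females (65.4% ± 10.6), with a difference of 9.76 percentage points and overlapping values (2-sided exact permutation test, p = 0.3). Thinning every cell to 1000 UMIs before the rule raised the male share of neutrophils to 74.7%. A limit of 3 in place of 5 UMIs of the precursor genes lowered it to 50.2%.

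**Figure D1:**
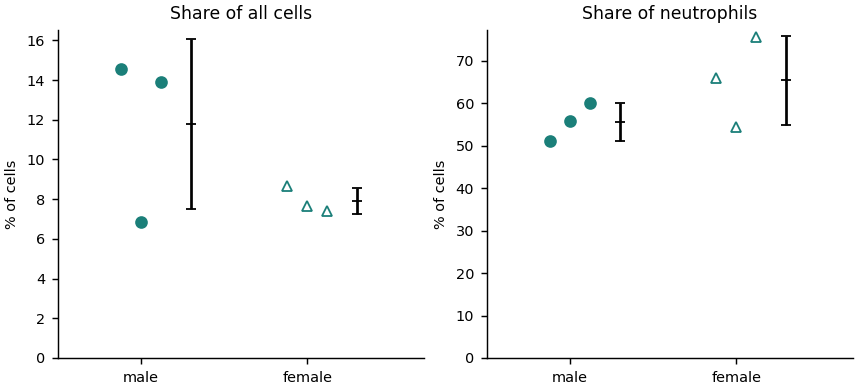
Percentage of all CD45+ cells (left) and of neutrophils (right) that were Ly6g Mmp8 Ltf neutrophils, 1 point per mouse (filled circles male, open triangles female) with the mean and SD of 3 mice. Male 2 sits lowest on the left at 6.87%, and the sexes overlap in both panels.

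UMIs per cell lay between those of precursors and of late neutrophils. Their median was 6198.5, 5663 and 7696 UMIs in males 1 to 3 and 6079, 7531.5 and 6034.5 in females 1 to 3. Late neutrophils had a pooled male median of 2902.5 UMIs and precursors 18108.5, so depth fell along the order precursor, Ly6g Mmp8 Ltf neutrophil, late neutrophil in these libraries. The precursor end of this order is partly set by the rule. Its cut counts UMIs of the precursor genes without scaling to depth, so a deeper cell reaches the cut more easily. The lowest UMIs per cell were 5288 in male precursors and 804 in male Ly6g Mmp8 Ltf neutrophils. The part of the cut in the depth of precursors was not tested. The UMIs summed per mouse were 468653, 337424 and 1602436 in the males and 208785, 162657 and 202279 in the females, and levels below are given as CPM in these sums, the UMIs of a gene divided by all UMIs of the sum and scaled to one common total. The assay counts 3′ ends, so a level does not grow with transcript length.

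Markers that the rule had not used were high in these cells, as the label says. Lcn2 encodes lipocalin 2, which withholds iron from bacteria by binding siderophores, and stood at 10966, 11013 and 11132 CPM in the male mice. Retnlg, a resistin-like secreted protein, stood at 29692, 17749 and 26838 CPM, and Ifitm6, a member of an interferon-induced transmembrane family, at 2078, 1894 and 2142 CPM. In macrophage-like cells with 10 or more C1q UMIs the means were 27.1, 41.8 and 16.2 CPM. A Retnlg UMI was found in 97.5% of the Ly6g Mmp8 Ltf neutrophils at a median of 6823 UMIs, and in 19.7% of B-like cells at a median of 3373.5 UMIs, a background that free RNA in the lane can give (92.8% and 7.95% after thinning to 1000 UMIs). An Ifitm6 UMI was found in 79.7% against 1.97% of B-like cells (61.4% and 1.32% thinned). None of the 3 genes was seen in these cells alone. Ifitm6 had a UMI in 81.6% of precursors (53.5% thinned) and 62.8% of monocyte-like cells (26.7% thinned), and Lcn2 in 96.5% of precursors and 77.6% of late neutrophils (93.9% and 59.6% thinned). Retnlg had a UMI in 91.4% of late neutrophils (86.0% thinned), where it stood at 19424, 12589 and 16364 CPM in males 1 to 3, overlapping its levels here.

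The genes of the rule are given as a description, since they chose the cells. Ly6g stood at 2832, 2273 and 2366 CPM in the males, Mmp8 at 3177, 2999 and 2865, Ltf at 7641, 8532 and 6046 and Camp at 17277, 22515 and 16995. A UMI of Mmp8 was found in 97.5% of the cells, of Ly6g in 92.5%, of Camp in 81.2% and of Ltf in 60%, so Ltf, although in the name of the cells, was not seen in each of them. Camp was also found in 32.9% of B-like cells (10.6% thinned, against 67.1%), which is the background for that share. After thinning, Ltf was found in 93.0% of precursors against 51.7% here, and Camp in 94.7% against 67.1%. Ly6g was found in 64.0% of precursors against 78.7% here, and Mmp8 in 20.2% against 88.7%. Of the late-stage genes, Hcar2 was seen in 117, Acod1 in 92, Asprv1 in 79 and Stfa2l1 in 73 of the 320 cells. UMIs of the precursor genes were 0 in 199 cells, and of these genes Cebpe was seen most often, in 112 cells. S100a8 and S100a9, which together form calprotectin, held 38.9%, 35.9% and 36.9% of all UMIs in males 1 to 3 and 37.4%, 37.8% and 39.2% in females 1 to 3.

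The 3 cuts of the rule fell in different places. Few cells lay near the S100 cut, 5 of them from 4% to 5% and 6 from 5% to 6%, with 5.52% in the lowest cell taken and 4.67% in the highest cell below the cut. The cut between early and late scores ran through a dense stretch, with 49 of the 320 cells and 34 of the 116 late neutrophils within 0.5 of 0, and the nearest cells at 0.0222 and -0.0147. At the precursor cut, 13 of the cells had 4 UMIs of the precursor genes and 8 precursors had 5. The difference of the scores had a median of 2.58, quartiles of 1.01 and 3.93 and a maximum of 4.76, and 116 cells lay at 3.5 or more. The histogram of the difference therefore showed a peak of cells near 4 and a second group that continued into the late neutrophils without a gap.

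**Figure D2:**
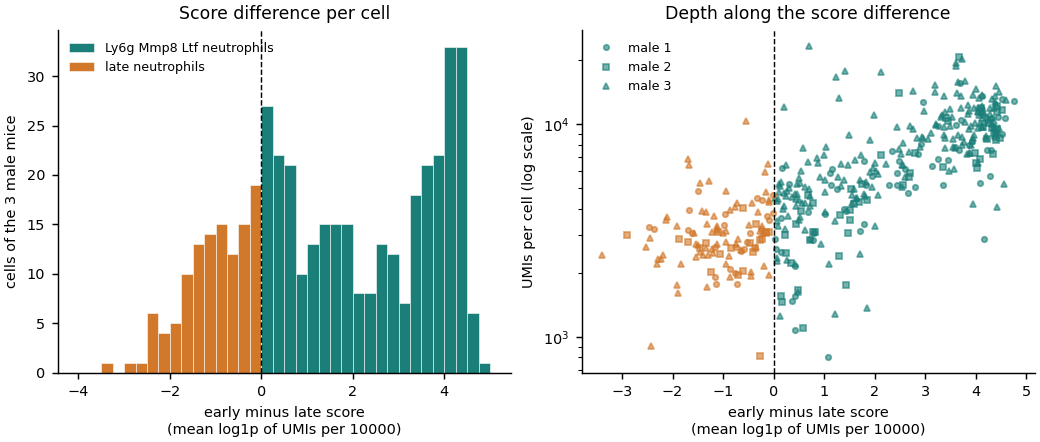
Left, number of cells of the 3 male mice by the early minus late score (bins of 0.25; green, Ly6g Mmp8 Ltf neutrophils; orange, late neutrophils; dashed line, the cut). Right, UMIs per cell on a log scale against the same difference, 1 symbol per mouse. The cells pile up near 4, 49 of the 320 lie within 0.5 of the cut, and UMIs per cell rise with the difference.

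The 20 genes with the most UMIs held 58.1%, 54.3% and 55.4% of the UMIs of the male sums. After S100a9 and S100a8 came Ngp (neutrophilic granule protein), Retnlg, Camp, Tmsb4x (thymosin beta 4, which binds actin monomers), Lyz2 (lysozyme), the nuclear noncoding RNA Malat1, Lcn2 and Actb. Ltf, Fth1 (ferritin heavy chain), S100a6, Anxa1 (annexin A1), Wfdc21 (a small secreted protein with a WAP domain), Actg1, Ftl1 (ferritin light chain), S100a11, Pglyrp1 (a peptidoglycan-binding antibacterial protein) and Pfn1 (profilin) followed. Ngp stood at 28917, 29918 and 25145 CPM in males and 30515, 31440.4 and 39539 CPM in females. Anxa1, which dampens neutrophil adhesion, stood at 6109, 6247 and 5283 CPM in males and 6255, 5957 and 7213 CPM in females. In both genes all 6 mice lay above every late sum.

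Against late neutrophils the Ly6g Mmp8 Ltf neutrophils were higher in specific granule genes and in single genes such as Anxa1, Ifitm6 and the oxidase subunit gene Cybb, and lower in single cytokine, NF-kB feedback and early-response genes. The test of this was made in the female mice, on genes outside the rule, because the rule had been written on the male cells. It set the 3 female sums against the late sum of female 2 (11 cells, 27561 UMIs), the only female late sum that reached 10 cells, so that lone sum is assumed to vary like the others and the p-values rest on that assumption. Female 2 also gave 1 of the 3 sums it was set against. By edgeR's quasi-likelihood F-test, with p adjusted by the method of Benjamini and Hochberg, 177 of 2176 genes passed (8.13%) at an adjusted p below 0.05, 141 higher (6.48%) and 36 lower (1.65%), and 523 had an unadjusted p below 0.05. With library sizes alone in place of TMM factors the split was 24 higher and 132 lower, and 24 of the higher and all 36 of the lower genes passed under TMM, RLE and library sizes alone. The count was 301 without female 1 and 56 with DESeq2. With all 3 late sums (8, 11 and 2 cells) it was 291 of 922 genes, and 168 (146 higher, 22 lower) with mouse as a block. Of the 43 genes whose call is given here, 34 passed with library sizes alone, 37 with all 3 late sums and 29 with the block as well. With library sizes alone Hp, Itgam, Cyba, Rac2, Aprt, Mapk13, Gapdh, Ifitm3 and Mgst2 did not pass. With the block Hp, Cyba, Rac2, Srgn, Cxcl2, Nfkbia, Ccl6, Junb, Clec4e, Isg15, Mcl1, Ninj1 and Jund did not. In that fit, where the late spread is measured, the adjusted p in edgeR was 2.89e-10 for Ngp, 0.000138 for Lcn2, 9.68e-06 for Anxa1, 2.08e-06 for Ifitm6, 1.9e-05 for Cybb, 6.87e-05 for Cd177 and 0.00643 for Gapdh. Of the 141 genes called higher, 30 had 0 UMIs in the lone late sum, so they passed the low-count filter through the other sums and could be called only higher. The zero depends on the scaling. The median log2 ratio of all genes was -0.46 in CPM and 0.19 after TMM in the male sums. A gene that follows the genes of the rule from cell to cell is separated by the rule in the females too.

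Specific granule genes led the higher side. Of the 16 listed, 11 outside the rule were tested in the females and 10 rose, against 6.48% of all genes, 8 of them under all 3 scalings. In the males 9 of 11 past the filter were higher in all 3 male sums under both CPM and TMM, where 8.9% of all genes were higher in CPM. The males are the contrast of the rule, so their counts are a description. The list median was a log2 ratio of 3.33 in the females, 3.08 with the 1 gene at 0 in the late sum (Orm1) set to its bound, against 0.47 and 0.23 for all genes. Ngp stood at 304, 202 and 231 CPM in the late cells of males 1 to 3 and at 544 CPM in those of female 2, all far below its range in the Ly6g Mmp8 Ltf neutrophils (log2 fold change 6.86 ± 0.32, SE, in females; adjusted p = 3.11e-17 in edgeR's quasi-likelihood test). Lcn2 was at 2089, 2205 and 1682 CPM in late male cells and 1705 CPM in late cells of female 2 (3.78 ± 0.25; adjusted p = 6.28e-13).

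Other specific granule genes were less abundant. Cd177, a surface protein carried on a fraction of neutrophils, stood at 764, 726 and 538 CPM in males and 728, 676 and 583 CPM in females against 158, 67.3 and 79.9 CPM in late male cells (3.08 ± 0.49 in females; adjusted p = 4.36e-05 in edgeR). Chil3, a chitinase-like lectin, had 525 UMIs in the females and 1 in the late sum, a ratio of 25.2 in CPM with a 95% exact counting interval of 4.51 to 998. Olfm4, olfactomedin 4, had 524 against 2 UMIs, a ratio of 12.6 (3.47 to 104). Female 1 held most of them, with 1475 CPM against 602 and 583 CPM in females 2 and 3. Pglyrp1 and Lyz2 rose by 1.63 ± 0.23 and 1.74 ± 0.20 (log2, SE; adjusted p = 8.7e-06 and 2.43e-07 in edgeR). Hp, haptoglobin, rose in the female test (0.996 ± 0.229; adjusted p = 0.00494 in edgeR), whereas in CPM all 3 male sums were lower (2849, 2365 and 2881 against 3960.2, 3618 and 3621), and after TMM they were not. Itgb2l, an integrin chain, had 72 UMIs in the males and 0 in late male cells, which makes it at least 3.66-fold higher over a floor of 3 counts over the group.

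**Figure D3:**
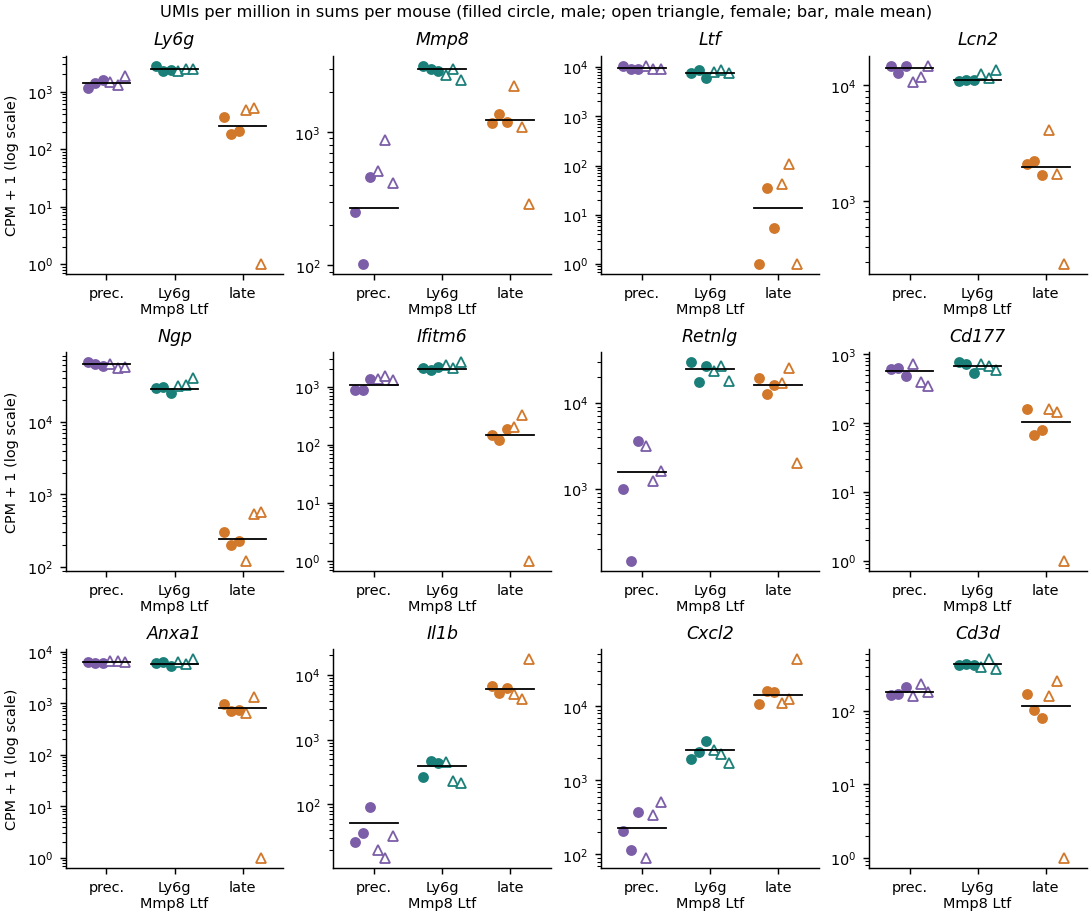
CPM plus 1 (log axis) of 12 genes in sums per mouse of precursors (prec.), Ly6g Mmp8 Ltf neutrophils and late neutrophils. Filled circles are males, open triangles females and bars the male mean. Ngp, Ltf, Lcn2 and Anxa1 stay high until the late stage, Mmp8 and Cd3d are highest in the middle, Il1b and Cxcl2 are highest in late cells, and the late point of female 3 rests on 2 cells.

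Genes of other granules and of the oxidase divided. Of 9 gelatinase granule genes tested in the females 1 rose (against 6.48% of all genes) and 0 under all 3 scalings. It was Itgam (the CD11b chain of the complement receptor CR3; adjusted p = 0.00195 in edgeR), with 221 against 3 UMIs in the late sum, a ratio of 3.54 in CPM with a counting interval of 1.2 to 17.3. Mmp9, gelatinase B, stood at 1186, 845 and 911 CPM against 1020.4, 926 and 799 CPM in late male cells, so the stages overlapped, and at 76.6, 89.8 and 189 CPM in precursors, which did not. Mmp8, a gene of the rule and so a description, stood at 1166, 1380 and 1189 CPM in late and 252, 102 and 460 CPM in precursor cells. Of 7 NADPH oxidase genes 3 rose in the females (against 6.48% of all genes) and 1, Cybb, under all 3 scalings. In male CPM 2 of 7 were higher and 3 lower in all 3 sums, against 8.9% and 32.7% of all genes. Those that rose were Cybb, the catalytic subunit (3.18 ± 0.45; adjusted p = 7.99e-06), Cyba, its membrane partner (1.12 ± 0.26; adjusted p = 0.0054) and Rac2 (0.95 ± 0.26; adjusted p = 0.0162), all in edgeR. Serpinb1a, an inhibitor of neutrophil elastase and cathepsin G, had 262 UMIs in the females and 0 in the late sum, at least 4.2-fold higher over a floor of 3 counts in that library. It was open to a call in that direction only. Of the other azurophil genes tested outside the rule Srgn, serglycin, a proteoglycan of granule packing, fell (-1.30 ± 0.20; adjusted p = 4.36e-05).

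Of the 12 genes with the largest male fold among those that rose in the females, the others were Ifitm6 (3.76 ± 0.36; adjusted p = 2.91e-09), Anxa1 (3.22 ± 0.27; adjusted p = 1.51e-10), Anxa3, Aprt (adenine phosphoribosyltransferase), and Adpgk (ADP-dependent glucokinase) and Mapk13 (a p38-family kinase), both without a UMI in the late sum and so open to a call in 1 direction only. Adpgk was at least 4.4-fold and Mapk13 at least 1.52-fold higher over that floor. Anxa3 had 229 against 2 UMIs (ratio 5.5, interval 1.51 to 45.7) and Aprt 104 against 1 (5, interval 0.877 to 199). In the glycolysis and glycogen list 7 of 17 genes rose (against 6.48% of all genes) and 0 fell in edgeR, and 1 rose under all 3 scalings. Gapdh stood at 2307, 2119 and 2197 CPM against 1518, 1212 and 1216 CPM in late male cells (1.77 ± 0.27 in females; adjusted p = 2.78e-05). Among 20 actin and motility genes 9 rose, 0 under all 3 scalings, and 1 of 20 was higher in all 3 male sums under both scalings and 7 were lower in CPM, where 32.7% of all genes were lower. Of 77 ribosomal protein genes 19 rose in the females and 0 under all 3 scalings. The share to set beside these and the actin genes is 6.48% of all genes, and both counts depend on the scaling. In the males 7 of 22 glycolysis genes were higher in all 3 sums under both scalings, where 8.9% of all genes were higher in CPM.

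In the inflammatory mediator list 5 genes fell in the females, Il1b, Cxcl2, Nfkbia, Tnfaip3 and Ccl6. The median log2 ratio of the list was -1.01 in the females and, in the males, -2.37 in CPM and -1.72 after TMM. Ccl4 and Sod2 had log2 ratios of 1.30 and 1.85 in the females, on 1 UMI each in the late sum, and did not pass (adjusted p = 0.616 and 0.379 in edgeR). Of the 19 listed, 15 outside the rule were tested, of which 10 did not pass (1.65% of all genes fell). In the males 14 of 17 past the filter were lower in all 3 sums under both scalings, as were 452 of all 3427 genes. With precursors 15 genes of the list passed the filter. Some of the 17 may thus have passed through the late cells alone, open to a lower count only. Il1b, the proinflammatory cytokine interleukin 1 beta, stood at 267, 471 and 436 CPM in males and 455, 227 and 213 CPM in females. In late cells it stood at 6779, 5318 and 6221 CPM in males and 4318 CPM in female 2, so the groups did not overlap (-2.93 ± 0.28 in females; adjusted p = 2.91e-09 in edgeR). Cxcl2, a neutrophil-attracting chemokine, stood at 1935, 2427 and 3405 CPM in males against 10787, 16190.4 and 15481 CPM in late cells (-1.63 ± 0.19; adjusted p = 3.06e-07). Nfkbia and Tnfaip3, feedback inhibitors of NF-kB, fell by 1.38 ± 0.24 and 1.91 ± 0.57 on the log2 scale (adjusted p = 0.000258 and 0.0327), and the chemokine Ccl6 fell by 1.28 ± 0.28 (adjusted p = 0.00292), all in edgeR. With mouse as a block and all 3 late sums, Cxcl2, Nfkbia and Ccl6 had adjusted p = 0.0646, 0.0829 and 0.14 in edgeR, and Il1b had 2.56e-05.

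The others of the 12 genes with the largest male fold among those that fell were Ccrl2 (an atypical receptor that binds chemerin; -1.95 ± 0.34; adjusted p = 0.000258), Gcnt2 (a glycan-branching enzyme), Gadd45b (a stress-response gene), Pim1 (a kinase that favours survival), Ell2 (an elongation factor), Gm5150 and Slc7a11 (the cystine transporter). Their log2 fold changes in the females lay between -3.57 and -1.67. In the dissociation and early-response list (Fos, Jun, Dusp1 and like genes, which tissue digestion can induce) 8 of 17 fell and 0 rose, and their part in the lower cytokine genes was not tested. Dusp1, a phosphatase that shuts off stress kinases, fell by 1.68 ± 0.26 and Junb by 1.12 ± 0.25 (log2, SE). Their adjusted p with mouse as a block and all 3 late sums was 0.0407 and 0.0638 in edgeR. That of Jund, from the same list, was 0.868 in edgeR. Over all genes 1.65% fell in the female test, the share to set beside the 8 of 17 above and the receptor genes that fell. They were 1 of 4 chemokine receptor genes (Ccrl2), 1 of 7 pattern recognition genes (Clec4e, a C-type lectin; -1.06 ± 0.25; adjusted p = 0.00684) and 0 of 12 cytokine receptor genes. In the males 3 of 4, 4 of 8 and 9 of 17 genes of these lists were lower in all 3 sums under both scalings, against 452 of all 3427 genes. Of the cytokine receptor genes 12 passed the filter with precursors. Some of the 17 may thus have passed through the late cells alone, open to a lower count only. Csf3r, the G-CSF receptor, stood at 230.4, 234 and 181 CPM against 959.7, 1043 and 1074 CPM in late cells, and Cxcr2, the receptor for Cxcl2, at 284, 243 and 242 CPM against 656, 690 and 803 CPM, with no overlap in either. After TMM neither passed in the females (-0.98 and -0.12 log2), a scale other than the male CPM. Unscaled, Csf3r had 113 of 573721 UMIs in the females against 20 of 27561 in the late sum, and Cxcr2 145 against 14.

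The interferon-stimulated list split. Ifitm6 and Ifitm3 rose (1.33 ± 0.26 for Ifitm3; adjusted p = 0.00122), and Isg15, a ubiquitin-like protein, fell (-1.78 ± 0.45; adjusted p = 0.0105), the only ones of 11 tested in edgeR that passed. In the males Isg15 stood at 57.6, 59.3 and 114 CPM against 449, 741 and 745 CPM in late cells. There 11 of 17 genes of the list were lower under both scalings, as were 452 of all 3427 genes. With precursors 9 genes of the list passed the filter. Some of the 17 may thus have passed through the late cells alone, and such genes could be counted only lower. Of all genes tested 1.65% fell. Among survival genes Mcl1, Ninj1 and Pim1 fell of 7 tested, Mcl1, which keeps neutrophils alive, by 0.98 ± 0.25 (adjusted p = 0.0125). Transcription factor genes gave Junb and Jund lower of 16, and Cebpb, a C/EBP factor of mature myeloid cells, stood at 2277, 1873 and 2613 CPM against 6074, 7624 and 8319.5 CPM in late male cells, but did not pass in the females (-0.38 log2; adjusted p = 0.275 in edgeR). In the iron and antioxidant list 2 of 13 were called higher, against 6.48% of all genes. Mgst2, a glutathione transferase, had no UMI in the late sum (at least 1.49-fold higher) and was open to that call only, and the other was Prdx5, a peroxiredoxin (2.43 ± 0.31; adjusted p = 1.34e-06). Both ferritin chains were lower in the males, Fth1 at 6743, 6677 and 7910.5 CPM against 20238, 27483 and 23312 CPM and Ftl1 at 4084, 3891 and 4373 CPM against 10678, 10468 and 10560.2 CPM. After TMM neither passed in the females (-0.50 and -0.31 log2). These fold changes, and that of Cebpb, are on another scale than the male CPM. Unscaled, Fth1 had 3823 of 573721 UMIs in the females against 486 of 27561 in the late sum. Ftl1 had 2121 against 235 and Cebpb 1112 against 131 UMIs.

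**Figure D4:**
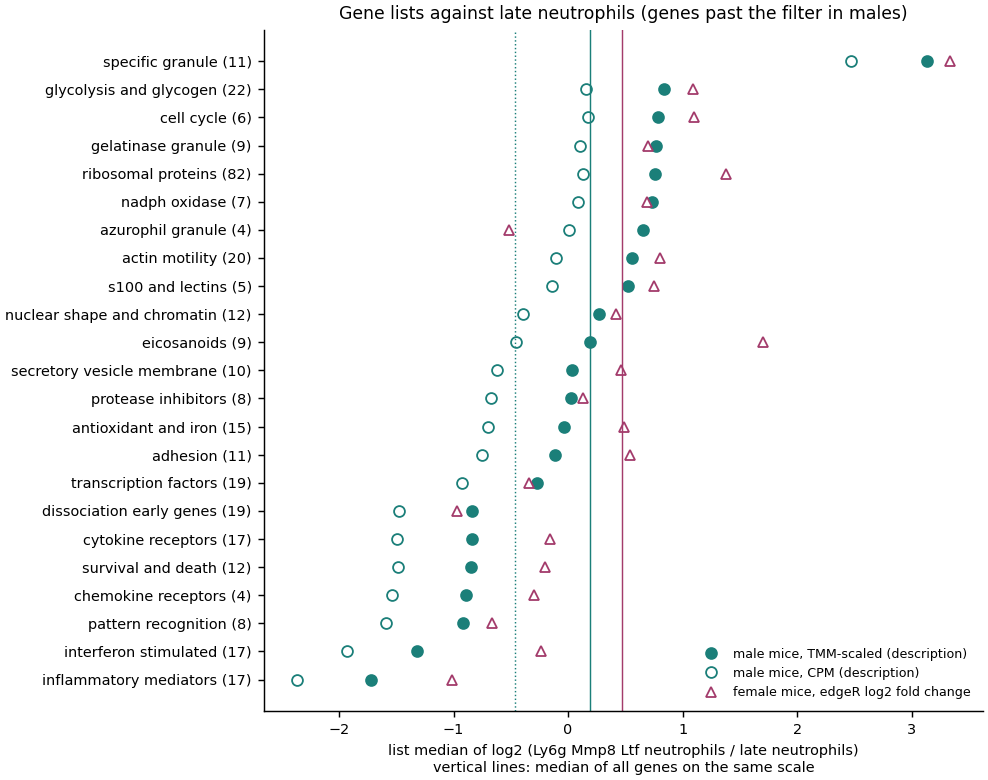
Median log2 ratio of Ly6g Mmp8 Ltf neutrophils to late neutrophils for 23 gene lists without the genes of the rule, in males after TMM (filled circles) and in CPM (open circles) and in females (triangles, edgeR). Vertical lines mark the median of all genes on each scale (0.19, -0.46 and 0.47). Specific granule genes lie farthest right and inflammatory mediators farthest left in the males.

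Precursors stood on the other side of the cells, and the same male sums enter both comparisons. No gene was tested here, because the cut on the precursor genes belongs to the rule. Cell cycle genes were lower in all 3 sums for 24 of 24 genes past the filter under both scalings. Of all 3455 genes 1084 were lower and 902 higher under both scalings (35.9% and 27.3% in CPM alone). Of the cell cycle list 6 genes passed the filter with late neutrophils. Most of the 24 thus passed it only with the precursors, so the filter left them little room to come out other than lower. Mki67, a marker of proliferating cells, had 0, 5.93 and 1.87 CPM against 195, 226 and 143 CPM in precursors, and Stmn1, stathmin, 10.7, 5.93 and 5.62 CPM against 398, 422 and 370.1 CPM. Ribosomal protein genes were lower for 68 of 81. Chil3 was lower too, at 657, 839 and 756 CPM against 4722, 4478 and 4557 CPM, as was Ngp, below its precursor level of 65224, 61987 and 57961 CPM, while Lcn2 stood at 14538, 12767 and 14820 CPM in precursors, above all 3 sums here, and Anxa1 at 6507, 6063 and 6245 CPM, overlapping them. Higher than in precursors were Retnlg (997, 144 and 3596 CPM in precursors), Mmp9, Cxcr2 (18.8, 7.81 and 28.8 CPM) and Ccl6 (6.25, 3.9 and 99.5 CPM). So were 12 of 15 inflammatory mediator and 10 of 12 cytokine receptor genes under both scalings, against 902 of all 3455 genes. A gene near 0 in precursors could pass the filter through the Ly6g Mmp8 Ltf neutrophils alone, and then be counted only higher.

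The cells were far from uniform along the score difference. The difference rose with UMIs per cell (Spearman rho 0.725 over 320 cells that share 1 lane), so cells were thinned to 1000 UMIs before genes outside the rule were ranked over 319 cells. Of 849 genes seen in at least 10% of thinned cells, Ngp (rho 0.875), Anxa1 (0.761), Lcn2 (0.696), Ifitm6 (0.608) and Chil3 (0.528) followed the difference most closely, then Dstn (destrin, an actin-severing protein), Wfdc21, Cybb, Serpinb1a and Arhgdib. Ccl6 (-0.746), Ftl1 (-0.725), Srgn (-0.705), Fth1 (-0.65), Cxcl2 (-0.647) and Malat1 (-0.611) ran most closely against it, then Btg1, Cebpb, H2-D1 (a class I MHC chain) and Msrb1. These correlations describe the cells and carry no test, since the difference chose the cells.

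The cells were cut into top, middle and bottom sets of 107, 106 and 107 cells by their difference. The top set held 45469 ± 2507 CPM of Ngp (SD, n = 3 male mice), the middle set 15840.5 ± 2947 and the bottom set 1434 ± 992. Lcn2 went from 14830.4 ± 726 through 9217 ± 590.1 to 3912 ± 652 CPM. Cxcl2 ran the other way, from 758 ± 304 through 1677 ± 639 to 9066 ± 2018 CPM, and Fth1 from 4143 ± 72.6 through 7301 ± 343 to 14927 ± 652 CPM. In Cxcl2 the bottom set was thus nearer to late neutrophils (14153 ± 2936 CPM) than to the top set. Retnlg and Mmp9 did not follow either course. Retnlg was 14363 ± 5179, 36732 ± 8327 and 31797 ± 5220.2 CPM and Mmp9 877 ± 128, 1095 ± 233 and 1077 ± 255 CPM from the top to the bottom set. Median UMIs per cell were 10155, 6838.5 and 4140 in the same order. The sets were cut by the rule genes and differ in depth, and the part of depth in these levels was not tested beyond the thinning above.

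**Figure D5:**
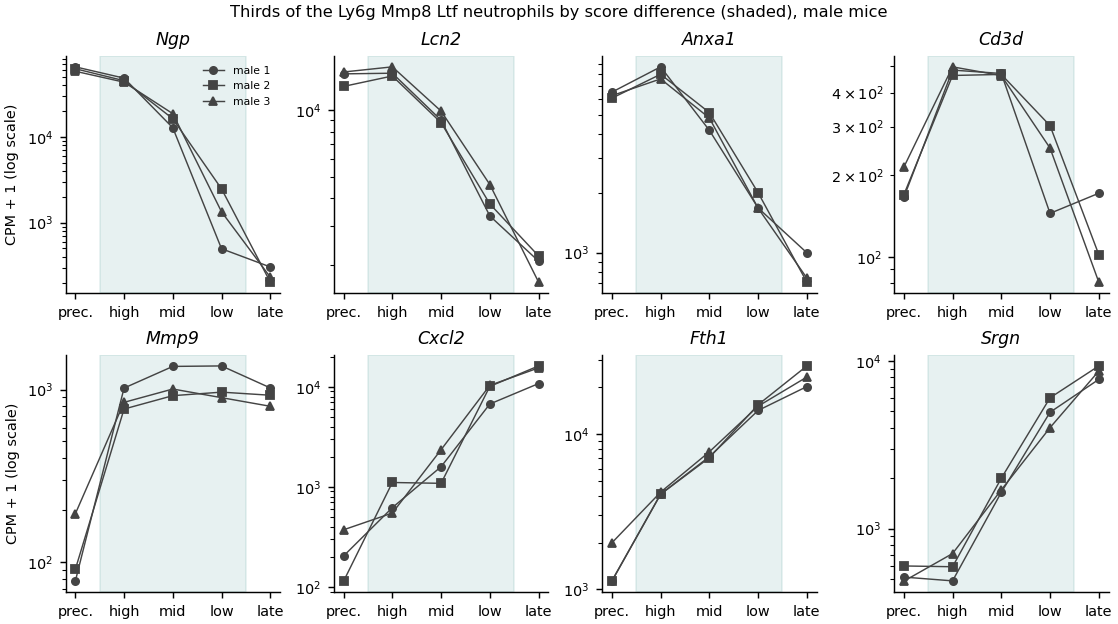
CPM plus 1 (log axis) in precursors, in the Ly6g Mmp8 Ltf neutrophils cut into 3 sets by score difference (shaded; high to low) and in late neutrophils, 1 line per male mouse. Ngp, Lcn2 and Anxa1 fall from the high to the low set, Cxcl2, Fth1 and Srgn rise, and Mmp9 averages between 877 and 1095 CPM in the 3 sets.

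The sexes were compared in the 6 sums of Ly6g Mmp8 Ltf neutrophils. In edgeR's quasi-likelihood test 3 of 2107 genes passed (0.142%), 1 higher in females (0.0475%) and 2 lower (0.0949%), and 166 had an unadjusted p below 0.05. All 3 lie on the sex chromosomes: Xist, the noncoding RNA that silences an X chromosome, was at 0 in the males and at 105, 79.9 and 64.3 CPM in the females (adjusted p = 2.3e-05), the Y-linked Eif2s3y at 53.3, 68.2 and 48.7 CPM in males and 4.79, 0 and 0 in females (adjusted p = 0.00187), and the Y-linked Ddx3y at 42.7, 41.5 and 47.4 CPM in males and 0 in females (adjusted p = 0.00288). These levels match the sex that each hashtag marks. The next genes were Dusp1 at 508, 717 and 593 CPM in males and 436, 393 and 386 CPM in females (log2 -0.67 ± 0.16; adjusted p = 0.22) and Cd14, the lipopolysaccharide co-receptor, at 563, 525 and 631 CPM against 326, 406 and 420.2 CPM (-0.69 ± 0.17; adjusted p = 0.308). Neither sex overlapped the other in these genes, but they did not pass. The count was 14 genes without male 1, 1 without male 2 and 5 without male 3. The change from late to Ly6g Mmp8 Ltf neutrophils was not shown to differ between the sexes. The planned interaction test had 1 female late sum, that of female 2 (11 cells), so the female change had no late replicate. With all 3 female late sums, 0 of 2089 genes passed the interaction test in edgeR (0%), and 0 also with mouse as a block. A count of 0 does not show that the sexes are alike.

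Markers of other cell types were low, with exceptions. Macrophage markers summed to 593, 2039 and 1857 CPM in males 1 to 3 and 991, 646 and 648 CPM in females, most of it Apoe, and all 8 genes were seen. In males 1 to 3 they summed to at most 328 CPM in precursors and to 1142, 1801 and 2928 CPM in late neutrophils, so the late sum was above that of the Ly6g Mmp8 Ltf neutrophils in males 1 and 3 and below it in male 2. An Il1b UMI was found in 84.6% of macrophage-like cells and 49.7% of the Ly6g Mmp8 Ltf neutrophils (62.1% and 22.9% thinned). Male 2 also had the most H2-Aa, an MHC class II chain, at 566 CPM against 122 and 225 CPM. Macrophage-like cells had 37816 CPM of Apoe and 11341 CPM of H2-Aa, and 5 of the 320 cells held 10 or more C1q UMIs. Ms4a1 (B cells), Xcr1 and Flt3 (dendritic cells), Col1a1 (fibroblasts) and Mcpt8 (basophils) were at 0 UMIs in the males. The B cell list summed to 17.1, 26.7 and 36.8 CPM. The dendritic cell list, led by H2-Aa, summed to 124, 569 and 228 CPM in males 1 to 3, against 219, 202 and 790 CPM in late male cells. The neuron list, led by Calca, summed to 143, 110 and 94.2 CPM against 194, 269 and 235 CPM in late cells. The monocyte list summed to 649, 939 and 729 CPM, led by Ly6c2, against 207, 252 and 368 CPM in late male cells, with no overlap. The part of these transcripts in the comparisons above was not tested.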

How the data were processed

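One 10x 3′ v3 library with hashtags was analysed. The authors deposited raw UMI counts per gene and cell, made with Cell Ranger (version 3.1.0 in the matrix header) on mm10 and, per the labels, Seurat: a matrix of 16819 genes in 2668 cells and one of 31053 genes and 6 hashtags in 4395 barcodes. The values of the hashtag sheet are names and were used only to assign sexes. Here HTODemux (Seurat 5.3.0, quantile 0.99) was run on all barcodes, followed by the study's filters (over 200 and under 5000 genes, under 5% mitochondrial reads), which returned the same 2668 male cells. Doublets were removed by hashtag only, and Scrublet, used as an alternative, marked 47 of 4111 barcodes. Counts were summed per mouse and stage and tested with edgeR 4.0.16 (TMM, filterByExpr, quasi-likelihood test, Benjamini-Hochberg, adjusted p below 0.05, sums of at least 10 cells). DESeq2 1.42.0 was an alternative. Descriptions used genes with a mean of at least 20 CPM over both stages, so a gene could pass through 1 stage alone and then be counted in that direction only. The mouse is the replicate, and the labels do not say whether hashed mice were handled on separate days. Pairing comes from the animal, since the same mice gave both stages, and the deviations of their sums from the group means correlated (Pearson, 2100 genes) at 0.141, 0.00218 and 0.131 in males and 0.0166, 0.00445 and -0.00992 in females. The members and lists were chosen with earlier results of these data known. Named genes were the markers, the rule genes, the 20 most abundant, up to 5 per list, the 12 largest male folds in each direction among genes called in females and moving alike in 6 mice, and the 10 genes in each direction that best followed the score difference.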

Additional observations from a re-analysis of the deposited data

Results flagged for a closer look

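Among the 269 barcodes with 2 or more hashtags that passed the filters on genes and mitochondrial reads, 34 met the rule, at a median of 10197.5 UMIs. Among the 101 barcodes with no hashtag 12 met it, at a median of 5192.5 UMIs. Both sets lie outside every comparison of the report and have no mouse, so a signal of this kind of cell was present in barcodes that were not used. No mouse was singled out, since each sex held 3 mice and groups of 3 were not screened for outlying samples.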

How the results depend on the processing

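The share of neutrophils in the males (55.6%) moved by more than 1 SD with a limit of 3 UMIs of the precursor genes (50.2%) and after thinning to 1000 UMIs (74.7%), where shallower cells leave and precursors lose UMIs of the precursor genes by construction. It was 53.4% to 57.9% without one male each, and the share of all cells was 10.4% to 14.2%. The difference between the sexes kept its direction in every alternative, at 4.62 to 15.2 percentage points without one mouse each and 4.48 to 13 otherwise (exact permutation p from 0.1 to 0.6). The count of 3 genes between the sexes became 26 without a filter on low counts and 1 to 14 without one mouse each. The 14 came without male 1, the 1 without male 2, and 5 were called without male 3. The count of 177 genes against late neutrophils in the females was 56 with DESeq2 (42 higher, 14 lower), 148 with RLE factors (103 and 45), 134 without a filter (101 and 33) and 240 to 301 without female 3 or female 1. Alternatives chosen after seeing the data gave 291 without a minimum of cells per sum, 168 with the replicate block (mouse) as well, and 156 with library sizes alone. The planned block, the score difference over 0.5 and leaving out female 2 could not be fitted in the females, as 1 late sum or none was left. The interaction count was 0 in every fit run, the replicate block included (0 of 3286), and could not be fitted without female 2 or with the score difference over 0.5. Of the 43 stage genes and 3 sex genes whose call is given, 0 changed sign in the fits of their test, while Hp was lower in male CPM. Besides the losses given in the report, DESeq2 lost Eif2s3y, Rac2, Ccl6, Ccrl2 and Jund and gave no adjusted p for 11 of those stage genes, leaving out male 2 lost Eif2s3y, leaving out female 3 lost Pim1, and the fit without a filter lost Tnfaip3, Ell2 and Jund. Ddx3y was not tested without any one male or with the score difference over 0.5, where it fell under the filter. The 27561 UMIs of the 1 late sum limit the female test, and 30 of the 141 higher genes had 0 UMIs there.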

Other observations

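Cd3d, which encodes the delta chain of the T cell receptor's CD3 complex, was found in these neutrophils with next to no Cd3e, Cd3g or Trbc2. It stood at 422, 439 and 427 CPM in males and 393, 504 and 366 CPM in females, against 519 CPM in T-like cells and 2.29 CPM in B-like cells, and 164 of the 320 cells held 3 or more UMIs summed over Cd3d, Cd3e, Cd3g and Trbc2. Cd3e, Cd3g and Trbc2 stood at 0.832, 1.34 and 1.91 CPM against 636, 988 and 1698 CPM in T-like cells. Cd3d was lower in precursors (164, 168 and 212 CPM) and in late male neutrophils (170.1, 101 and 79.9 CPM), with no overlap of the male sums, and within the Ly6g Mmp8 Ltf neutrophils it went from 479.6 ± 17.6 and 465 ± 4.08 CPM in the top and middle sets to 231 ± 80.6 CPM in the bottom set (SD, n = 3 mice).

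Acta2, the smooth muscle actin, rose along the same order without being a neutrophil gene in the lists used. It stood at 0, 3.9 and 34.9 CPM in precursors, 186, 145 and 192 CPM in Ly6g Mmp8 Ltf neutrophils and 802, 539 and 519 CPM in late male neutrophils, against 0.993 CPM in macrophage-like and 0.989 CPM in B-like cells. Cldn5 and Kdr, endothelial markers of the same list, were at 0 UMIs in the Ly6g Mmp8 Ltf neutrophils. Both genes were singled out after their values were seen.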
